A study of Mus musculus with 6 samples.

Results

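The nuclear lamins and the LINC complex (linker of nucleoskeleton and cytoskeleton) were followed through 10 genes: Lmna, Lmnb1 and Lmnb2, which encode the lamins; Lbr, Emd and Tmpo, which encode proteins of the inner nuclear membrane that hold lamins and chromatin; and Sun1, Sun2, Syne1 and Syne2, which encode the bridge across the nuclear envelope. The genes were taken by symbol from the 18057 genes of the deposited count table, and all 10 were present and passed the filter on low counts, as did 14149 genes in all. They were chosen with the Piezo1 KO to WT comparison of these libraries already known, in which Lmna had stood out, so their levels and fold changes are given as a description with no test.

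RNA came from group 2 innate lymphoid cells (ILC2s), lymphocytes of barrier tissues that make type 2 cytokines, isolated from mouse lung. The Piezo1 KO group (3 libraries) had the genotype label Il7rcrePiezo1flx, a floxed allele of the mechanically gated cation channel gene Piezo1 with Cre under Il7r, and the WT group (3 libraries) had the label Il7rcre, so by these labels both groups carried the driver. Il7r is used widely in the lymphoid lineage, so recombination with this driver is not limited to ILC2s. In both groups the mice had received 3 intranasal doses of 1 µg IL-33, an alarmin that activates ILC2s, and the isolated cells were then cultured for 24 h in IL-2 (10 ng/mL) plus IL-7 (10 ng/mL). The labels give no age, no sex and no number of animals behind a library, so a p-value here speaks only of how far the libraries scatter, and that scatter may be technical.

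Lamins are intermediate filament proteins that line the inside of the nuclear membrane. A-type lamins (A and C, spliced from Lmna) set much of the stiffness of a nucleus and are scarce in most lymphocytes, while B-type lamins (from Lmnb1 and Lmnb2) stay bound to the membrane. SUN proteins in the inner membrane bind KASH proteins (nesprins, from the Syne genes) in the outer membrane, and this bridge passes force from the cytoskeleton to the lamina, which places these genes downstream of mechanical load on a cell.

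The libraries held 13059046 to 33459904 estimated counts, the lowest in WT replicate 3. Piezo1, the targeted gene, was at 150, 109 and 122 CPM (counts scaled to library size with TMM factors) in Piezo1 KO replicates 1, 2 and 3. In WT replicates 1, 2 and 3 it was at 247, 278 and 160 CPM, without overlap, as in 20.6% of all tested genes. Its log2 fold change was −0.85 ± 0.21 (SE), which did not pass an adjusted p of 0.05 (adjusted p = 0.112, edgeR). A count over the whole gene takes in exons outside the floxed part, and the part of such exons in this value was not tested. All 13 ILC2 markers were detected, with a summed level of 9418 to 10514 CPM in Piezo1 KO libraries and 8847 to 9041 CPM in WT libraries, a sum led by Il5 (4578 to 5483 CPM in Piezo1 KO and 3986 to 4082 CPM in WT). They went both ways, 8 with a positive and 5 with a negative log2 fold change. Of the 13, 3 passed an adjusted p of 0.05 (edgeR), against 1.51% of all tested genes: Il7r, the driver's own gene, fell to 32.8 ± 2.03 CPM in Piezo1 KO, against 66.8 ± 8.25 CPM in WT (log2 fold change −1.03, adjusted p = 0.00722), Icos fell (−0.61, adjusted p = 0.0168) and Il17rb rose (0.74, adjusted p = 0.0136). Gata3 (−0.42, adjusted p = 0.0612) and Thy1 (1.06, adjusted p = 0.0603) did not pass, though their groups did not overlap. Without overlap were 5 of the 13 higher and 4 lower in Piezo1 KO, against 10.1% and 10.5% of all tested genes. An unadjusted p under 0.05 (edgeR) was reached by 11 of the 13, against 13.2% of all tested genes. DESeq2 called 6 of the 13 and limma-voom 6, against 4.46% and 3.1% of the genes tested. Of the defining markers of other cell types, 0 of 5 endothelial and 1 of 6 fibroblast genes were in the table, and that fibroblast gene, Col1a1, was at 0.342 CPM or less. Myeloid markers (7 of 8 measured) summed to 6.21 to 13.2 CPM in Piezo1 KO and 10.1 to 22.5 CPM in WT, and epithelial markers (3 of 6) to 16.1 to 20.9 CPM in Piezo1 KO and 12.0 to 17.8 CPM in WT. Within these lists single genes separated the groups both ways, though 0 passed the threshold in edgeR. Csf1r (log2 fold change −2.56) and Cdh1 (−2.79) were lower in every Piezo1 KO library than in any WT library. Cd68 (0.61) and Krt18 (0.83) were higher in every Piezo1 KO library, and all of these genes lay at 4.18 CPM or less. In bulk RNA, fewer cells of a type and less RNA per cell cannot be told apart.

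Lmna was the member whose libraries separated by group, lower in Piezo1 KO. It lies on chromosome 3 (88480147 to 88509956, minus strand, in GRCm38, which is mm10) and its count adds lamin A and lamin C. Its level was 80.9, 84.7 and 73.3 CPM in Piezo1 KO replicates 1, 2 and 3 and 186, 218 and 208 CPM in WT replicates 1, 2 and 3. Every Piezo1 KO library lay far below every WT library, and the libraries within each group lay close together, with a coefficient of variation of 7.32% in Piezo1 KO and 8.08% in WT. The means were 79.6 ± 5.83 CPM in Piezo1 KO and 204 ± 16.5 CPM in WT (SD, n = 3 each), so the Piezo1 KO mean was 39.1% of the WT mean, a log2 fold change of −1.36 ± 0.10 (SE). At an adjusted p of 0.05 (edgeR), 72 genes were called lower in Piezo1 KO (0.509% of those tested), Lmna among them. Of the 72, 15 had a larger fold than Lmna. Those expressed at least as highly as Lmna were 8, a count that includes Lmna itself, and 0 had a larger fold. Lmna was chosen on this comparison, so nothing is read from this rank. Over 14 alternative fits the log2 fold change of Lmna stayed between −1.42 and −1.29.

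Marker lists of other cell types whose sums separated the groups were set beside this value. Mast cell markers (4 of 5 measured) summed to 3.93 to 5.25 CPM in Piezo1 KO libraries and 11.6 to 16.4 CPM in WT libraries, and each of the 4 was lower in every Piezo1 KO library than in any WT library. T cell markers (4 of 6) summed to 19.9 to 26.2 CPM in Piezo1 KO and 27.1 to 35.5 CPM in WT, also without overlap. Cd3g made up most of that sum and its own groups overlapped (17.8 to 23.9 CPM in Piezo1 KO and 23.4 to 31.7 CPM in WT), while Cd3e was lower and Cd3d higher in every Piezo1 KO library and Trac overlapped. B cell markers (2 of 4) summed higher in Piezo1 KO, with 58.0 to 77.3 CPM in Piezo1 KO and 16.0 to 23.7 CPM in WT, nearly all of it Ighm. NK cell and ILC1 markers were represented by Tbx21 (1 of 4), at 0 CPM in all Piezo1 KO libraries and 1.06 to 1.5 CPM in WT libraries. In edgeR, Cma1 of the mast cell list (adjusted p = 0.0312), Ighm (0.00473) and Tbx21 (0.0170) passed the threshold. Of the 3 tested T cell markers, 0 passed, and 1.51% of all tested genes did. Groups without overlap were found in 20.6% of all tested genes. The part of cells of these types in the Lmna value was not tested.

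**Figure D1:**
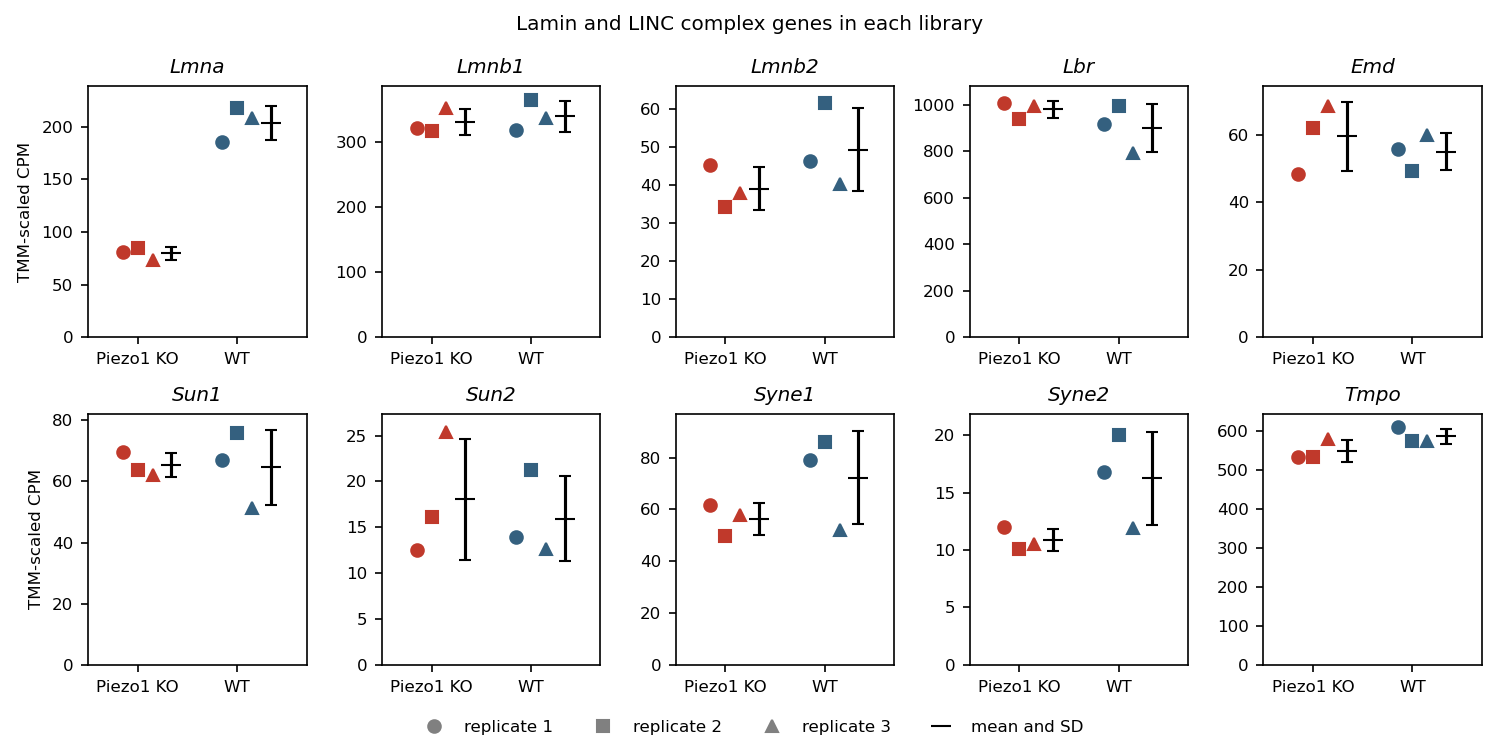
TMM-scaled CPM (vertical axes, each from 0) of the 10 genes in each library, with circles, squares and triangles for replicates 1, 2 and 3 and a bar for the mean and SD of 3 libraries. Lmna has its Piezo1 KO libraries at 73.3 to 84.7 CPM, below the WT libraries at 186 to 218 CPM, and in the 9 other panels the groups overlap.

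The promoters of Lmna and, for comparison, of the B-type lamin gene Lmnb2 are shown because they belong to the lamin gene whose groups lay apart and to one whose groups overlapped. RefSeq (GRCm38.p6) gives 2 start sites for each gene, and the lines give the bases from 250 before each start site up to the start site, all on the minus strand, except that the first Lmna line ends earlier, where an annotated exon begins. Capitals mark matches on either strand to GGGCGG (GC box), CCAAT or AGGTCA (the core that nuclear receptors such as those for retinoic acid bind).
Lmna upstream start, chr3:88503387-88503602: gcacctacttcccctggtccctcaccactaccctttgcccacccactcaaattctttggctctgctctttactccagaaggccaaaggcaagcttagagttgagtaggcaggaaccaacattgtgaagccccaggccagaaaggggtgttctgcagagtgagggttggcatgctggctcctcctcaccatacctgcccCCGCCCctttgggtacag
Lmna downstream start, chr3:88493313-88493562: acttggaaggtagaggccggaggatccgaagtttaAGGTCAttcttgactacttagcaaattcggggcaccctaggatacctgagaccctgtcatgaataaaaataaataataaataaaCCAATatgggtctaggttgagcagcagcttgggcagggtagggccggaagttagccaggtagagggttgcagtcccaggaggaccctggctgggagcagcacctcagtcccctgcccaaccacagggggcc
Lmnb2 upstream start, chr10:80918246-80918495: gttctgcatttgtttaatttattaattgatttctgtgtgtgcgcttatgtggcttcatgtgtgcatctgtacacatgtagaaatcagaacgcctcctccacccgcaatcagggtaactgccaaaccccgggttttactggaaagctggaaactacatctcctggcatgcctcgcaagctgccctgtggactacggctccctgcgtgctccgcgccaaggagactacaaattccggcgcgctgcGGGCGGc
Lmnb2 downstream start, chr10:80906413-80906662: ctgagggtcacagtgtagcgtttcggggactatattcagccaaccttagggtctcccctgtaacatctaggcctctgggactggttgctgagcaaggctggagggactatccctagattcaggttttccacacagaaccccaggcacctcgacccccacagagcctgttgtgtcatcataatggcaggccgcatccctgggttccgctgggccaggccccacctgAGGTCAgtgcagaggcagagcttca

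A GC box lies in the upstream promoter of both lamin genes, and AGGTCA in the downstream promoter of both. GC content over the 250 bases was 56.4% and 52.8% at the Lmna starts and 52.8% and 58.0% at the Lmnb2 starts. Promoter sequences were found for 9 of the 10 members, 15 windows in all, each from 250 bases before to 50 after a start site. GGGCGG was in 9 of the 15 windows, at least 1 for each of the 9 genes, against 35.7% of all 32851 mouse promoter windows, and CCAAT was in 7 of 15 against 37.4%. AGGTCA was in 4 of 15 windows, against 16.3% of all. TATAAA was in 2 of 15 (13.6% of all) and TTTGAA, the core of the cell cycle CHR element, in 3 of 15 (17.9% of all). TGANTCA, the AP-1 site, was in 2 of 15 windows (7.81% of all), those of Lbr and of the upstream Lmna start, where it lies after the start site and so beyond the printed line, the E2F site in 1 of 15 (2.27%) and the CArG box bound by SRF in 0 of 15 (1.63%). Matches shared bases in 3 windows: AP-1 and CHR in Lbr, TATAAA and CCAAT at a Sun1 start, and a pair of GC boxes in Sun2. A match is a match of letters in these windows and no sign of binding.

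The B-type lamin genes did not separate the groups as Lmna did. Lmnb1, the main B-type lamin gene of these cells, lies on chromosome 18 (56707813 to 56753424) and was at 322, 317 and 354 CPM in Piezo1 KO replicates 1, 2 and 3 and at 319, 366 and 338 CPM in WT replicates 1, 2 and 3. The groups overlapped almost fully, with a log2 fold change of −0.04 ± 0.09 (SE). Lmnb2, on chromosome 10 (80901203 to 80918245), was at 45.2, 34.1 and 37.8 CPM in Piezo1 KO replicates 1, 2 and 3 and at 46.2, 61.4 and 40.3 CPM in WT replicates 1, 2 and 3. WT replicate 2 stood highest and the other 5 libraries overlapped. The log2 fold change of −0.34 ± 0.17 became −0.17 without WT replicate 2 and −0.47 without WT replicate 3.

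Because both kinds of lamin were counted in the same RNA, their ratio in a library does not depend on scaling between libraries. The log2 ratio of Lmna to Lmnb1 counts was −1.99, −1.91 and −2.27 in Piezo1 KO replicates 1, 2 and 3 and −0.78, −0.75 and −0.70 in WT replicates 1, 2 and 3. The groups did not overlap, and the mean difference was −1.31 (Piezo1 KO minus WT), or −1.39 to −1.21 when any library was left out. Against Lmnb2 the mean log2 ratio was 1.04 ± 0.25 in Piezo1 KO and 2.07 ± 0.28 in WT (SD, n = 3 each), also without overlap. Lmna was chosen on this comparison, so these ratios carry its fall over and nothing is read from their separation. Per kb of annotated exon, Lmna made up 10.4%, 11.2% and 8.91% of the counts of the lamin genes in Piezo1 KO replicates 1, 2 and 3 and 21.2%, 21.3% and 22.4% in WT replicates 1, 2 and 3. Lmnb1 made up 83.0 ± 1.62% in Piezo1 KO and 71.3 ± 0.65% in WT, and Lmnb2 made up 6.78 ± 1.00% in Piezo1 KO and 7.09 ± 1.14% in WT (SD, n = 3 each). Lamin RNA was mostly B-type in both groups, with a smaller A-type share and a larger Lmnb1 share in Piezo1 KO. The shares of a library add up to a fixed whole, so a smaller Lmna share by itself raises the rest. Lmnb1 itself was not higher in Piezo1 KO, with a mean of 331 CPM against 341 CPM in WT.

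**Figure D2:**
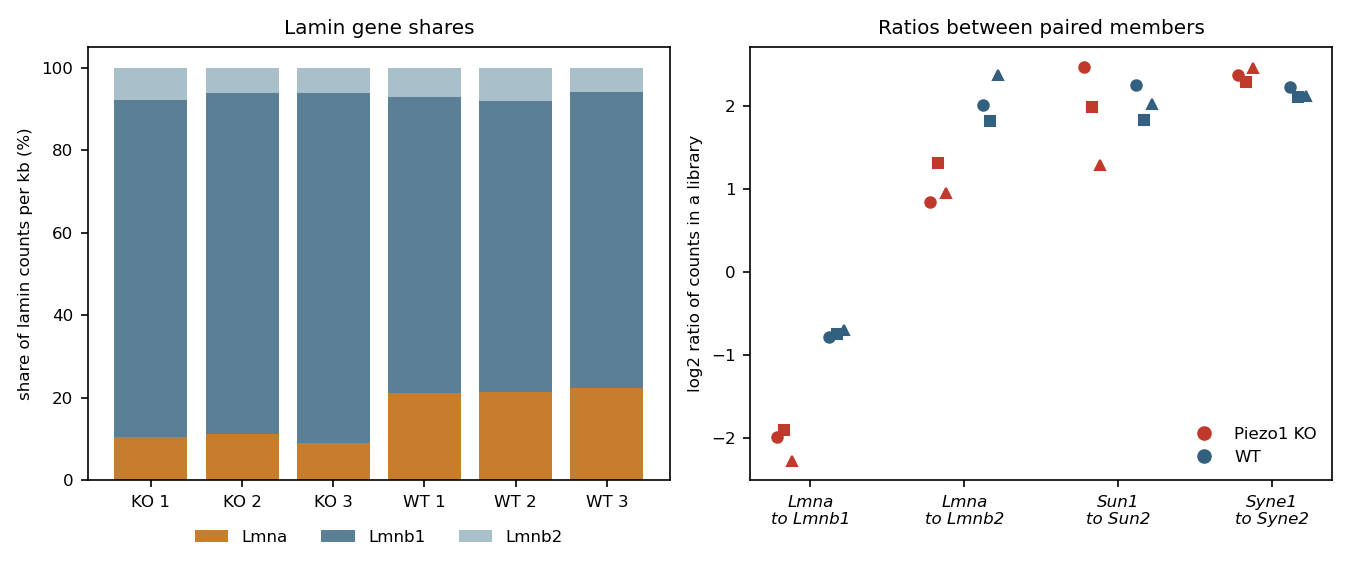
Left, the share (%) of each lamin gene in lamin counts per kb of annotated exon, a stacked bar per library with 3 Piezo1 KO (KO 1 to 3) left of 3 WT; Lmna takes 8.91% to 11.2% in Piezo1 KO and 21.2% to 22.4% in WT. Right, log2 ratios of counts between paired members in each library (circles, squares and triangles: replicates 1, 2 and 3). The Lmna ratios separate the groups, the ratio of Syne1 to Syne2 does so narrowly and the ratio of Sun1 to Sun2 does not.

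Of the inner nuclear membrane partners, Lbr and Tmpo stood at high levels and Emd at a lower one, and each overlapped between the groups. Lbr encodes the lamin B receptor, which ties heterochromatin and B-type lamins to the membrane and also acts as a sterol reductase. It was at 1009, 937 and 993 CPM in Piezo1 KO replicates 1, 2 and 3 and at 915, 993 and 791 CPM in WT replicates 1, 2 and 3, higher than 99.4% of tested genes. The ranges overlapped, with WT replicate 3 lowest. The log2 fold change of 0.12 ± 0.10 (SE) became 0.04 without WT replicate 3 and 0.18 without WT replicate 2. Lbr shares 440 exon bases with Dnah14 on the other strand, and no source used here says whether counting used strand.

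Tmpo encodes the LAP2 proteins, which bind lamins and, through the LEM domain, the chromatin protein BAF. Its level was 534, 533 and 581 CPM in Piezo1 KO replicates 1, 2 and 3 and 610, 576 and 576 CPM in WT replicates 1, 2 and 3. The top Piezo1 KO library was within the WT range, and the log2 fold change was −0.10 ± 0.08. Emd, on the X chromosome, encodes emerin, another LEM-domain protein that binds lamin A. It was at 48.4, 62.0 and 68.5 CPM in Piezo1 KO replicates 1, 2 and 3 and at 55.8, 49.3 and 60.0 CPM in WT replicates 1, 2 and 3. The Piezo1 KO libraries lay on both sides of the WT range. Its log2 fold change of 0.12 ± 0.14 became 0.01 without Piezo1 KO replicate 3 and 0.24 without Piezo1 KO replicate 1. Emd shares 343 exon bases with the pseudogene Gm14686. The ratio of Lmna to Emd therefore separated the groups as the other Lmna ratios did, with a mean log2 ratio of 0.43 ± 0.32 in Piezo1 KO and 1.89 ± 0.22 in WT (SD, n = 3 each). All 4 Y-linked genes looked up were expressed in every library, and their sum lay between 162 and 175 CPM in Piezo1 KO and between 163 and 186 CPM in WT. Xist, the other sex-linked gene looked up, was not among the genes of the count table.

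The genes of the SUN proteins, which anchor the bridge in the inner membrane, differed in RNA level between the groups by less than their spread. Sun1 was at 69.7, 63.8 and 62.1 CPM in Piezo1 KO replicates 1, 2 and 3 and at 66.8, 75.6 and 51.3 CPM in WT replicates 1, 2 and 3, with all Piezo1 KO libraries inside the WT range. Its log2 fold change was 0.01 ± 0.14, and 4 of 14 alternative fits gave a negative sign. Sun2 was at 12.6, 16.2 and 25.4 CPM in Piezo1 KO replicates 1, 2 and 3 and at 14, 21.2 and 12.6 CPM in WT replicates 1, 2 and 3. It was the most variable member within groups, with a coefficient of variation of 36.6% in Piezo1 KO and 29.0% in WT. Its log2 fold change of 0.17 ± 0.29 became −0.16 without Piezo1 KO replicate 3, so that 1 library set its sign. Sun2 shares 147 exon bases with the antisense gene Gm16575.

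Syne1 and Syne2, the genes of the giant nesprins, had lower means in Piezo1 KO, with overlap and without passing the threshold. Syne1, which encodes nesprin 1, was at 61.8, 49.6 and 57.9 CPM in Piezo1 KO replicates 1, 2 and 3 and at 79.0, 86.0 and 51.9 CPM in WT replicates 1, 2 and 3. Syne2, which encodes nesprin 2, was at 12.0, 10.1 and 10.5 CPM in Piezo1 KO replicates 1, 2 and 3 and at 16.8, 20.0 and 11.9 CPM in WT replicates 1, 2 and 3. In both genes WT replicate 3 lay at the level of the Piezo1 KO libraries, while WT replicates 1 and 2 lay above all of them. The log2 fold change was −0.36 ± 0.18 for Syne1 and −0.59 ± 0.20 for Syne2 (SE). For Syne1 it was −0.55 without WT replicate 3 and −0.24 without WT replicate 2. For Syne2 it was −0.76 without WT replicate 3 and −0.43 without WT replicate 2. The log2 ratio of Syne1 to Syne2 was 2.37, 2.29 and 2.46 in Piezo1 KO replicates 1, 2 and 3 and 2.23, 2.11 and 2.12 in WT replicates 1, 2 and 3, a small difference of 0.22. The groups did not overlap, but the lowest Piezo1 KO value (2.29) lay close to the highest WT value (2.23). How often ratios of other gene pairs separate the groups was not tested. The other nesprin genes, Syne3 (49.1 ± 2.76 CPM in Piezo1 KO and 48.7 ± 6.68 CPM in WT) and Syne4 (1.92 ± 0.57 CPM in Piezo1 KO and 1.65 ± 0.47 CPM in WT), which are not among the 10, had log2 fold changes of 0.01 and 0.20.

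Syne1 and Syne2 are very long, with 40.5 kb (Syne1) and 26.7 kb (Syne2) of annotated exon, so the behaviour of long genes was read in each library. Over the 1121 tested genes with at least 10 kb of exon, the median deviation from a gene's mean over all 6 libraries was 0.09, −0.08 and 0.02 on the log2 scale in Piezo1 KO replicates 1, 2 and 3 and 0.10, 0.11 and −0.21 in WT replicates 1, 2 and 3. Over the 5127 genes with under 3 kb the same medians were −0.01, 0.14 and 0.08 in Piezo1 KO and −0.02, −0.20 and 0.18 in WT. WT replicate 3 thus had low values for long genes and high values for short ones, and WT replicate 2 the opposite. Among the members, WT replicate 2 was the highest WT library for 8 of 10 and WT replicate 3 the lowest for 7 of 10. The part of this length pattern in the nesprin values was not tested. The median log2 fold change of the long genes was 0.01 with all libraries and −0.09 without WT replicate 3. That of the short genes was 0.10 with all libraries and 0.22 without WT replicate 3.

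**Figure D3:**
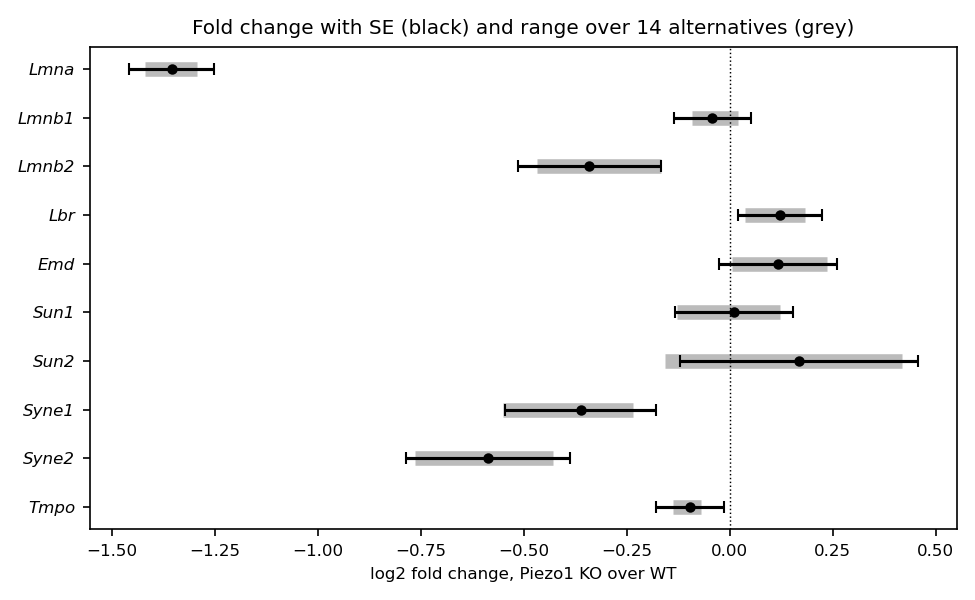
Log2 fold change of each gene, Piezo1 KO over WT (horizontal axis), with its SE as a black bar and the range over 14 alternative fits in grey. Lmna lies at −1.36, its alternatives between −1.42 and −1.29, and the other 9 genes lie between −0.59 and 0.17.

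Among the 10 members, 4 had a positive and 6 a negative log2 fold change, with a median of −0.07 (−0.04 without Lmna) against 0.02 over all tested genes. Lmna was the only member past an adjusted p of 0.05 (1 of 10; edgeR, adjusted over all genes tested), where 1.51% of all tested genes passed, 0.509% as lower in Piezo1 KO. Of the 10 members it alone had groups that did not overlap, a property of 20.6% of all tested genes, 10.5% with Piezo1 KO lower. As the members were chosen on this comparison, nothing is read from these shares.

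Levels of different genes were compared per kb of annotated exon, which takes in the exons of every annotated isoform and so understates genes whose shorter isoforms prevail, the nesprins above all. In Piezo1 KO libraries the order was Lbr (197 to 212 CPM per kb), Lmnb1 (107 to 119), Tmpo (48.5 to 52.8), Emd (19.2 to 27.2), Lmna (12.6 to 14.5), Lmnb2 (7.96 to 10.6), Sun1 (8.18 to 9.18), Sun2 (2.32 to 4.68), Syne1 (1.23 to 1.53) and Syne2 (0.379 to 0.448). In WT libraries it was the same but for Lmna, which at 31.8 to 37.3 CPM per kb stood above Emd at 19.6 to 23.9. Lmnb2 and Sun1 overlapped in both groups, and no other neighbours in either order did. Transcripts of Lbr and Lmnb1 thus exceeded those of Lmna in every library, and Sun1 exceeded Sun2 in every library.

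**Figure D4:**
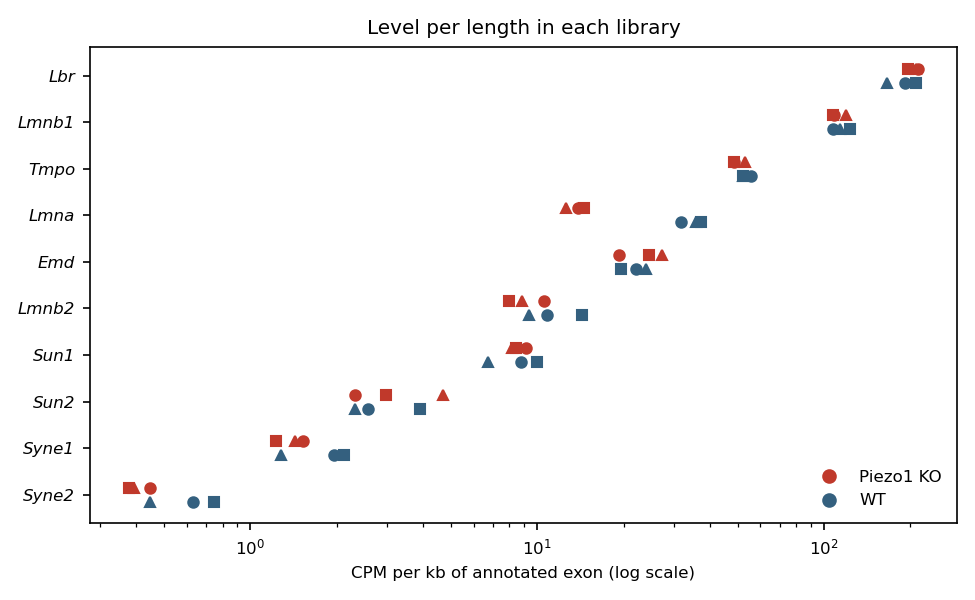
CPM per kb of annotated exon (horizontal log axis) of the 10 genes in each library, Piezo1 KO above WT in each row, with circles, squares and triangles for replicates 1, 2 and 3. Lmna is the gene whose place changes: it lies below Emd in Piezo1 KO (12.6 to 14.5) and above it in WT (31.8 to 37.3).

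Other genes of the nuclear envelope, from lists that do not hold the members, did not pass the test. Of 79 such genes tested, 0 passed an adjusted p of 0.05 (edgeR), against 1.51% of all tested genes, and 5 had an unadjusted p under 0.05 (1 higher and 4 lower in Piezo1 KO), against 13.2% of all tested genes. DESeq2 called 1, against 4.46% of the genes it tested, and limma-voom 0, against 3.1%. Their median log2 fold change was −0.01, against 0.02 over all tested genes, with 38 positive and 41 negative. Of 6 genes for the processing of the lamin tail, 0 passed, and Zmpste24, the protease that matures prelamin A, had the smallest p with 155 ± 4.02 CPM in Piezo1 KO and 142 ± 6.58 CPM in WT (log2 fold change 0.13 ± 0.08 SE, adjusted p = 0.577, edgeR). Of 13 other SUN, KASH and torsin genes and partners, 0 passed, and Lrmp, a KASH protein of lymphocytes, was at 59.0 ± 5.37 CPM in Piezo1 KO and 67.0 ± 4.29 CPM in WT (adjusted p = 0.520, edgeR).

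Among 16 other inner membrane and chromatin partners, 0 passed in edgeR. Nrm, which encodes nurim, a protein of the inner nuclear membrane, came nearest. It was at 56.9, 57.8 and 53.0 CPM in Piezo1 KO replicates 1, 2 and 3 and at 70.1, 82.5 and 78.3 CPM in WT replicates 1, 2 and 3, without overlap. Its log2 fold change was −0.46 ± 0.10 (SE, adjusted p = 0.0720, edgeR), and DESeq2 alone called it (adjusted p = 0.00348). Of 30 nuclear pore genes, 0 passed and 18 were positive, with a median of 0.03, and Nup62, a protein of the central channel, was at 206 ± 11 CPM in Piezo1 KO and 256 ± 20.8 CPM in WT (adjusted p = 0.201, edgeR). Of 14 ESCRT genes for sealing of the envelope, 0 passed, and Chmp6 was at 53.9 ± 3.61 CPM in Piezo1 KO and 69.2 ± 6.57 CPM in WT (adjusted p = 0.182, edgeR).

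Lists tied to lamin A regulation and to growth were read in the same way. Of 11 genes of SRF, its MRTF co-activators and their actin-related targets, 0 passed in edgeR and 8 were negative (median −0.11), against 47% of all tested genes negative, and Vcl, which encodes the adhesion protein vinculin, was at 15.2, 13.5 and 12.3 CPM in Piezo1 KO replicates 1, 2 and 3 and 20.0, 18.9 and 19.2 CPM in WT replicates 1, 2 and 3. Its log2 fold change was −0.50 ± 0.13 (SE, adjusted p = 0.131, edgeR), while DESeq2 (0.0481) and limma-voom (0.0397) called it. Retinoic acid signalling is known to act on Lmna transcription. Of 9 retinoid genes, 0 passed in edgeR, and 4 had an unadjusted p under 0.05, against 13.2% of all tested genes. Of these 4, 1 was higher and 3 lower in Piezo1 KO, where 6.91% of all tested genes were lower at that cut. Of the 9, 8 were negative (median −0.32), against 47% of all tested genes. The retinoic acid receptor genes in the list, Rara and Rarg, lay at −0.09 and −0.19 in log2 fold change (edgeR adjusted p = 0.777 and 0.706), and the groups overlapped for Rara but not for Rarg. Rxra, Rxrb and Rxrg, the genes of the retinoid X receptors, lay at −0.53, −0.32 and −0.85 in log2 fold change without passing the threshold (edgeR adjusted p = 0.240, 0.225 and 0.249). The groups of these 3 did not overlap, as in 10.5% of all tested genes with Piezo1 KO lower. Rxra was at 6.29 ± 0.75 CPM in Piezo1 KO and 9.12 ± 0.74 CPM in WT. Rxrb was at 34.9 ± 1.74 CPM in Piezo1 KO and 43.5 ± 3.40 CPM in WT. Rxrg was at 2.26 ± 0.23 CPM in Piezo1 KO and 4.06 ± 1.12 CPM in WT. All 5 receptor genes were named after their values were seen. Dhrs3, a retinaldehyde reductase, had the smallest p of that list, with 8.91 ± 0.05 CPM in Piezo1 KO and 5.13 ± 1.51 CPM in WT (adjusted p = 0.181, edgeR, and 0.0418 in limma-voom).

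Lmnb1, Tmpo and Lbr are expressed more in dividing cells, so proliferation genes were set beside them. Of 19 tested, 0 passed in edgeR, DESeq2 or limma-voom, and 5 had an unadjusted p under 0.05, all lower in Piezo1 KO, against 6.91% of all tested genes. Of the 19, 15 were negative (median −0.12), against 47% of all tested genes. Their summed level was 8011 to 8135 CPM in Piezo1 KO libraries and 8214 to 8782 CPM in WT libraries. Vrk1, a kinase that releases BAF from chromatin when the envelope breaks down, was at 150 ± 9.41 CPM in Piezo1 KO and 184 ± 8.06 CPM in WT (log2 fold change −0.30 ± 0.09 SE, adjusted p = 0.196, edgeR).

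**Figure D5:**
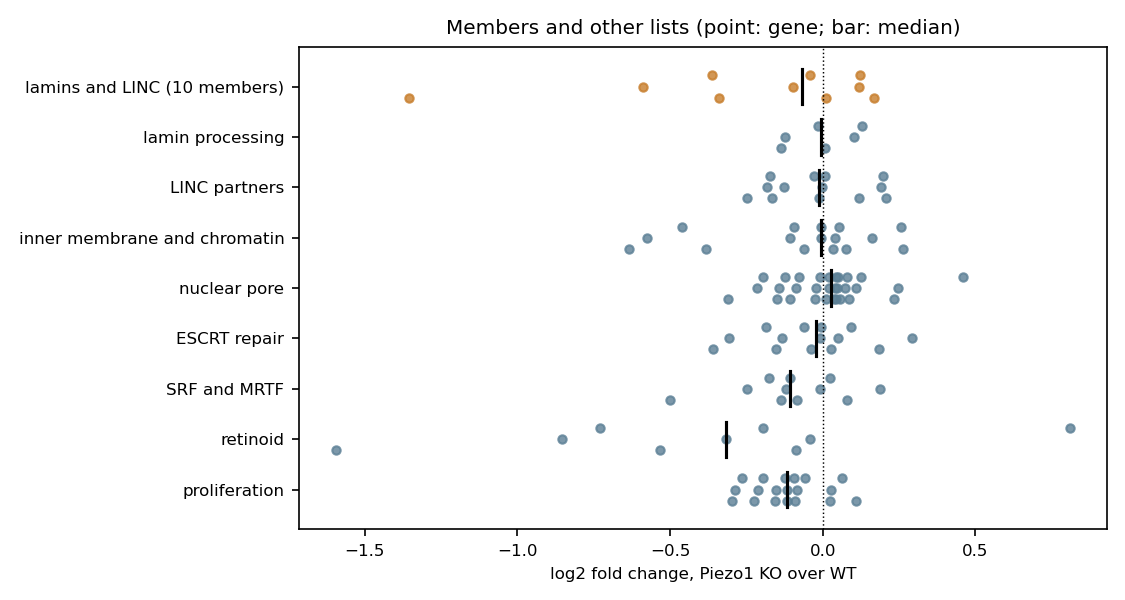
Log2 fold change, Piezo1 KO over WT (horizontal axis), of each gene (points) and the median (black bar) for the 10 members and 8 other lists. Lmna, at −1.36, lies outside the range of each nuclear envelope list, whose lowest value is −0.63, and the retinoid list spreads from −1.60 to 0.81.

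The genes with the profile most like that of Lmna were found by the root mean square difference of centred log2 CPM over the 6 libraries, among 8696 genes whose mean log2 CPM was 3 or more. They were Irf8, an interferon regulatory factor gene (0.139), Tgtp1, an interferon-induced GTPase (0.166), Cxcl3, a chemokine (0.195), Fam160a2 (0.200), and Anxa1, which encodes annexin A1 (0.200). Irf8 was at 27.4, 25.2 and 24.2 CPM in Piezo1 KO replicates 1, 2 and 3 and at 55.3, 57.9 and 54.9 CPM in WT replicates 1, 2 and 3. Each of the 5 was lower in all Piezo1 KO libraries, as likeness to Lmna requires. The nearest to Lmnb1 were Ro60 (0.03), Ankrd13a (0.03) and Rtn4ip1 (0.04). The nearest to Sun2 were Cdkn1b (0.134), Hira (0.149) and Emp1 (0.157), and Cdkn1b, an inhibitor of the cell cycle, had its highest value, 16.2 CPM, in Piezo1 KO replicate 3, as Sun2 did.

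Spread within groups also told the members apart. The biological coefficient of variation of the fit was 0.0936 for Tmpo, 0.10 for Lmnb1, 0.105 for Lmna and 0.107 for Lbr, each below the trend for genes of its level, and 0.258 for Sun2, 0.191 for Syne2 and 0.167 for Syne1. Sun2 lay above its trend value of 0.182 and Syne1 above its 0.130, and with Lmnb2, Emd and Sun1 they made 5 of 10 members above the trend, against 28.3% of all tested genes.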

How the data were processed

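RNA-seq of isolated lung ILC2s was analysed from the table the authors deposited, which holds estimated counts per gene, not all whole numbers and not scaled between libraries. Libraries were made from 10 ng of RNA, per the labels' protocols, and the submitters' processing notes name the build mm10. Aligner, counting tool, annotation and strand: not given in the sources used here. Rows were matched to samples by description, and groups and replicate numbers came from the titles. Counts were rounded, filtered with filterByExpr (14149 of 18057 genes kept), TMM-scaled and tested without covariates with edgeR 4.0.16 under R 4.3.3 (glmQLFit, glmQLFTest; two-sided). P-values were adjusted by Benjamini-Hochberg over all tested genes, with a threshold of 0.05. SE is the absolute log2 change divided by the root of F. On simulated data the fit recovered 20% of changes of 1.5-fold, 52% of 2-fold and 78% of 3-fold, with 4 false calls among 122. A gene that did not pass may therefore still have changed by a modest fold. Replicates of a group differed by more than sampling noise (chi-square per gene 10.9 to 59.3). Positions and exon lengths came from GENCODE M21, promoters from RefSeq.

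Alternatives were RLE, upper-quartile or no factors, no filter, a filter of at least 1 CPM throughout a group, a replicate block, dropping each library in turn, DESeq2 1.42.0 and limma-voom 3.58.1 with quality weights. The members and lists were chosen with earlier results of these data known. Named genes are the members, from each list those called (up to 3) or the smallest p, and the nearest profiles. Syne3, Syne4, the retinoid receptors and single markers of cell types were named after their values were seen. Length classes were added after seeing the data. Libraries held 13059046 to 33459904 counts, so counting error is smallest for Lbr and largest for Sun2 and Syne2.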

Additional observations from a re-analysis of the deposited data

How the results depend on the processing

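The log2 fold change of Lmna kept its sign under all 14 alternatives. Of the other members, Lmnb2, Lbr, Emd, Syne1, Syne2 and Tmpo kept theirs, while Lmnb1 turned positive in limma-voom (0.02), Sun1 turned negative in 4 fits (to −0.13 without WT replicate 3) and Sun2 in 1 (−0.16 without Piezo1 KO replicate 3). The 214 genes past the threshold became 594 in DESeq2, 439 in limma-voom and 52 with the replicate block, and 33 to 297 when a library was left out: 35, 33 and 53 without Piezo1 KO replicates 1, 2 and 3 and 34 without WT replicate 1. Same-numbered libraries did not deviate together, with correlations of −0.02, −0.18 and −0.01 between their deviations from the group means. The largest correlation was 0.21, between Piezo1 KO replicate 2 and WT replicate 3. Such correlations cannot show whether same-numbered libraries were collected or handled together. With the block, Lmna had a log2 fold change of −1.35. For the other nuclear envelope genes the count of 0 became 1 in DESeq2 (Nrm, of the inner membrane list). The SRF list's count of 0 became 1 in DESeq2 and 1 in limma-voom, and that of the retinoid list became 1 in limma-voom; the cause was not tested. With promoter windows ending at the start site, the AP-1 site was in 1 member window in place of 2. Depth bears most on Sun2 and Syne2, the members with the fewest counts.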
